A study of Mus musculus with 6 samples.

Results

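The 50 genes described here encode proteins of ribosome biogenesis and of the nucleolus, chosen by name from textbook roles and not by any measured value. Of them, 49 had a probe set naming that gene alone, out of 18193 such genes on the array, and all 49 are accounted for below. Their RNA was measured in fetal liver (FL) cells of 3 Pogz-/- (Pogz-KO) and 3 Pogz+/+ (Pogz-WT) embryos at E14.5, with 1 Affymetrix mouse genome array per liver. Both genotypes were on a C57BL/6 background after repeated backcrossing. The knockout is a germline deletion made with Cre and Flp driven by the β-actin promoter, so it is carried by every cell type of the liver and of the embryo. Pogz encodes a nuclear zinc-finger protein. Each liver was minced and strained to a single-cell suspension with no sorting, so the RNA is of the whole organ. In such bulk samples fewer cells of a type and less RNA per cell cannot be told apart.

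Ribosomes are assembled in the nucleolus. RNA polymerase I makes a long precursor RNA, small nucleolar ribonucleoproteins (snoRNPs) guide its chemical modification and cutting, and a large set of assembly factors fold, trim and export the 2 subunits. Cells that grow and divide fast make many ribosomes, red cell precursors and progenitors of the FL among them, and red cell production is known to be sensitive to inherited defects in this pathway. The 49 genes are 6 of RNA polymerase I transcription, 4 of the box C/D snoRNPs, 5 of the box H/ACA snoRNPs, 13 of small subunit assembly, 17 of large subunit assembly and 4 abundant nucleolar proteins.

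Over all 6 arrays no gene of the pathway passed the test, although the levels of many of them lay higher in Pogz-/- FL. Polr1b, Nop58, Nop14 and Ncl passed it as higher in Pogz-/- FL only when Pogz+/+ replicate 1 was left out. With values as deposited they were then higher by 0.31 to 0.98 on the log2 scale. These 4 calls need limma's trend and robust options, without which 0 genes were called in that fit. Nop14 was no longer called there after quantile normalization. With the mean of all its probe sets over 6 arrays, Ncl had a log2 fold change of −0.0054. None of the 49 genes passed the test as lower in any fit. The median log2 fold change of the 49 was 0.30 over 6 arrays and 0.15 without that replicate. Quantile normalization, which gives all arrays the same distribution of values, gave a median of 0.22 over 6 arrays and 0.12 without the replicate.

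One array, Pogz+/+ replicate 1, was unlike the rest. Its correlation with the other 5 arrays was 0.794 to 0.810 (Pearson's r of log2 signal over probe sets), while the other pairs lay at 0.884 to 0.906. The signal ratio of the 3′ to the 5′ control probe sets of β-actin, which rises when RNA or target is short, was 3.72 to 4.09 in the Pogz-/- arrays and 52.3, 5.50 and 6.63 in the Pogz+/+ arrays 1, 2 and 3. That ratio was higher in all 3 Pogz+/+ arrays than in any Pogz-/- array, so the quality measure moves with genotype as well as with replicate 1. Its part in the results was not tested. Pogz itself did not check the genotypes: its brightest probe set had log2 signals of 9.16, 9.22 and 9.33 in Pogz-/- FL, against 9.17, 9.03 and 8.95 in Pogz+/+ FL (log2 fold change 0.18, adjusted p = 0.547), and whether it lies within the deleted exons was not analysed here.

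With values as deposited, cell type markers also moved with genotype. Summed intensity of 7 erythroid markers was 31394 to 33767 in Pogz-/- FL and 46138 to 69799 in Pogz+/+ FL, and that of 8 hepatoblast markers was 16994 to 27109 in Pogz-/- FL and 27568 to 50635 in Pogz+/+ FL. Progenitor markers (9 genes) summed to 3590 to 3946 in Pogz-/- FL and 2370 to 3059 in Pogz+/+ FL, although by single genes 4 had a log2 fold change above 0 and 5 below. Macrophage markers (9 genes) summed to 3922 to 5426 in Pogz-/- FL and 5569 to 6555 in Pogz+/+ FL, granulocyte markers (10 genes) to 49866 to 57271 in Pogz-/- FL and 49346 to 85575 in Pogz+/+ FL, and B cell markers (7 genes) to 231 to 334 in Pogz-/- FL and 383 to 631 in Pogz+/+ FL. The 8 proliferation genes summed to 45497 to 46504 in Pogz-/- FL and 55914 to 67593 in Pogz+/+ FL. The single genes did not always follow the sum of their list. The granulocyte sums overlapped between the genotypes, yet 8 of the 10 genes had a log2 fold change above 0 and 1 was called higher over 6 arrays. The hepatoblast sums did not overlap, yet in only 1 of the 8 genes did all Pogz-/- arrays lie below, against 5 of 7 erythroid and 5 of 8 proliferation genes. Of all genes 16.3% lay below in this way, and 16.9% of genes with a mean log2 signal of at least 6. Markers whose mean signal lay under the median of all genes were Hba-a1 of the erythroid list, Flt3 of the progenitor list and Cd79a, Ebf1 and Pax5 of the B cell list. The direction of single markers depended on the scaling. Over 6 arrays as deposited, 1 of 7 erythroid, 2 of 8 proliferation and 2 of 8 hepatoblast genes had a log2 fold change above 0. After quantile normalization the counts were 1, 3 and 2, and with each array centred on its median 5, 7 and 4. All genes moved with the scaling too. As deposited, quantile normalized and median centred, 7207, 8915 and 11828 of 18193 genes had a log2 fold change above 0. Among the 8399 genes with a mean log2 signal of at least 6 the counts were 4447, 4368 and 7223. The part of the marker shifts in the levels of the ribosome biogenesis genes was not tested.

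The pathway is a textbook target of MYC, which binds the E-box CACGTG, and the promoters of 43 of the 50 listed genes, Mrto4 among them, were found in the RefSeq promoter table (GRCm38.p6). The motif, which reads the same on both strands, was searched in the 250 bases before each gene's start. It was present in 2 of the 43 genes (4.65%), against 1854 of all 27025 genes in the table (6.86%). The 2 windows are shown because they are the members that carry the motif, with CACGTG in capitals and 12 bases on each side.
Nop2: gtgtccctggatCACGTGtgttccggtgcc
Utp18: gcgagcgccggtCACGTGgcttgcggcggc
The Nop2 window is chr6:125131811-125131840 on the plus strand, and its motif runs over bases 60 to 55 before the start of this gene, which encodes a methyltransferase of the large subunit RNA. The Utp18 window is chr11:93885769-93885798 on the minus strand, with the motif over bases 20 to 15 before the start, and the gene encodes a protein of the early small subunit particle. Over 6 arrays Nop2 differed by −0.56 and Utp18 by 0.71 on the log2 scale, neither past the threshold.

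The mean signal of each of the 49 genes lay above the median of all genes. Mean log2 signal over 6 arrays ran from 6.80 for Rrp12, a factor in export of the small subunit, to 13.1 for Npm1, the nucleophosmin gene, and was at least 6 in each of the 49, while the median of all genes was 5.67. Signals of different probe sets are not on one scale, so these values do not rank the genes. Single values could be lower: Nop14 had 4.82 in Pogz+/+ replicate 1 and Rrp12 had 5.71 in Pogz+/+ replicate 2, under the medians of all genes in those arrays (6.28 and 5.87). The median of the 49 was 9.22, 8.97 and 9.06 in Pogz-/- replicates 1, 2 and 3, against 8.65, 9.005 and 8.80 in Pogz+/+ replicates 1, 2 and 3. The 2 groups overlap at Pogz-/- replicate 2 and Pogz+/+ replicate 2.

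**Figure D1:**
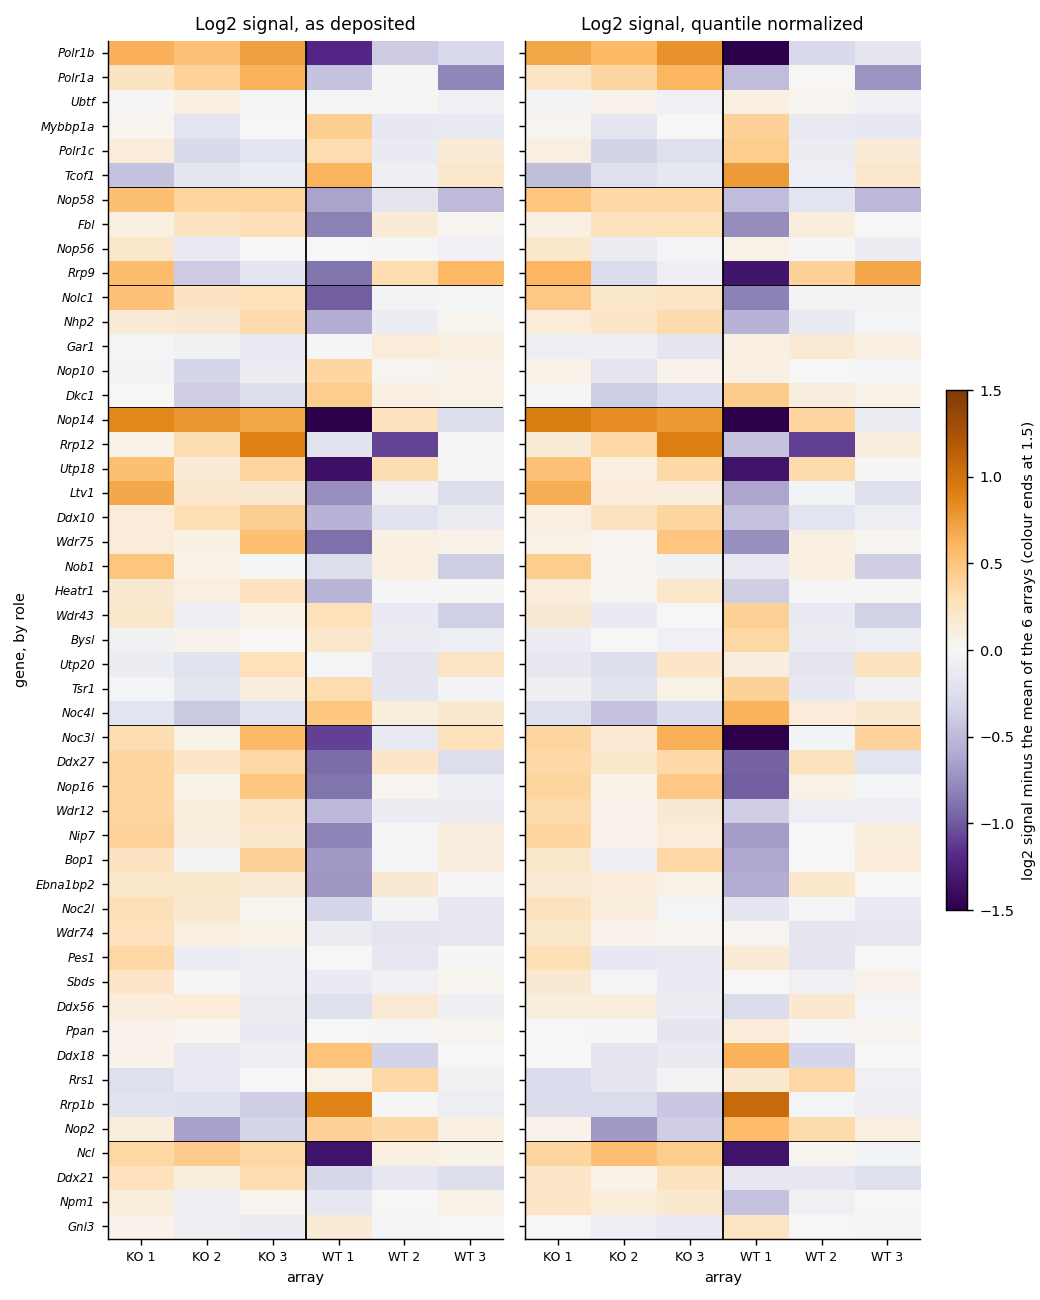
Log2 signal of the 49 genes (rows, by role) in the 6 arrays (columns, Pogz-/- left of Pogz+/+), as the difference from each gene's mean over the arrays, with values as deposited on the left and quantile normalized on the right. Pogz+/+ replicate 1 holds the lowest value of 25 of the 49 genes and the highest of 13 as deposited.

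Counted by array, 25 of the 49 genes had their lowest value in Pogz+/+ replicate 1 and 13 had their highest there. After quantile normalization the counts were 22 and 15. Among all genes 24.2% were lowest and 42.8% were highest in that array as deposited, the opposite balance. These shares include dimmer genes, and were not taken among genes as bright as the 49 or after quantile normalization. As deposited, the highest value of 17 of the 49 genes was in Pogz-/- replicate 1 and that of 13 in Pogz-/- replicate 3. These counts, visible in the heat map of the 49 genes, describe how much each result below leans on 1 array.

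Genes of RNA polymerase I transcription differed in direction. Log2 signals of Polr1b, which encodes the second-largest subunit of the enzyme, were 7.96, 7.85 and 8.06 in Pogz-/- FL, against 6.11, 6.93 and 7.02 in Pogz+/+ FL. All Pogz-/- values lay above all Pogz+/+ values, and the lowest was that of Pogz+/+ replicate 1. The log2 fold change was 1.27 (SE 0.26, 2.41-fold, adjusted p = 0.0945) over 6 arrays and 0.98 (SE 0.16, 1.97-fold, adjusted p = 0.00788) without Pogz+/+ replicate 1, where it passed the test also after quantile normalization (adjusted p = 0.0123). The largest subunit gene, Polr1a, had 7.77, 7.92 and 8.16 in Pogz-/- FL, against 7.09, 7.52 and 6.75 in Pogz+/+ FL. The groups did not overlap, and here replicate 3, not replicate 1, was the lowest Pogz+/+ array. Its log2 fold change of 0.83 (SE 0.24) over 6 arrays and 0.82 (SE 0.23) without replicate 1 did not pass (adjusted p = 0.151 and 0.0705), and with the mean of all its probe sets it was 0.08.

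The other 4 genes of this step lay closer to 0 or below it. Tcof1, encoding treacle, a nucleolar scaffold of RNA polymerase I, had log2 signals of 7.66, 7.92 and 7.98 in Pogz-/- FL, against 8.71, 8.02 and 8.29 in Pogz+/+ FL. Each Pogz-/- value was below each Pogz+/+ value, a difference of −0.49 in the log2 means (SE 0.21, adjusted p = 0.273) that was −0.30 without replicate 1. Ubtf, the upstream binding factor that opens ribosomal DNA for transcription, spanned only 9.92 to 10.03 in Pogz-/- FL and 9.88 to 9.96 in Pogz+/+ FL. Mybbp1a, a nucleolar regulator of this transcription, and Polr1c, a subunit shared with RNA polymerase III, overlapped between the genotypes. Over the 6 genes the median log2 fold change was −0.03, with 3 above 0 and 3 below.

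**Figure D2:**
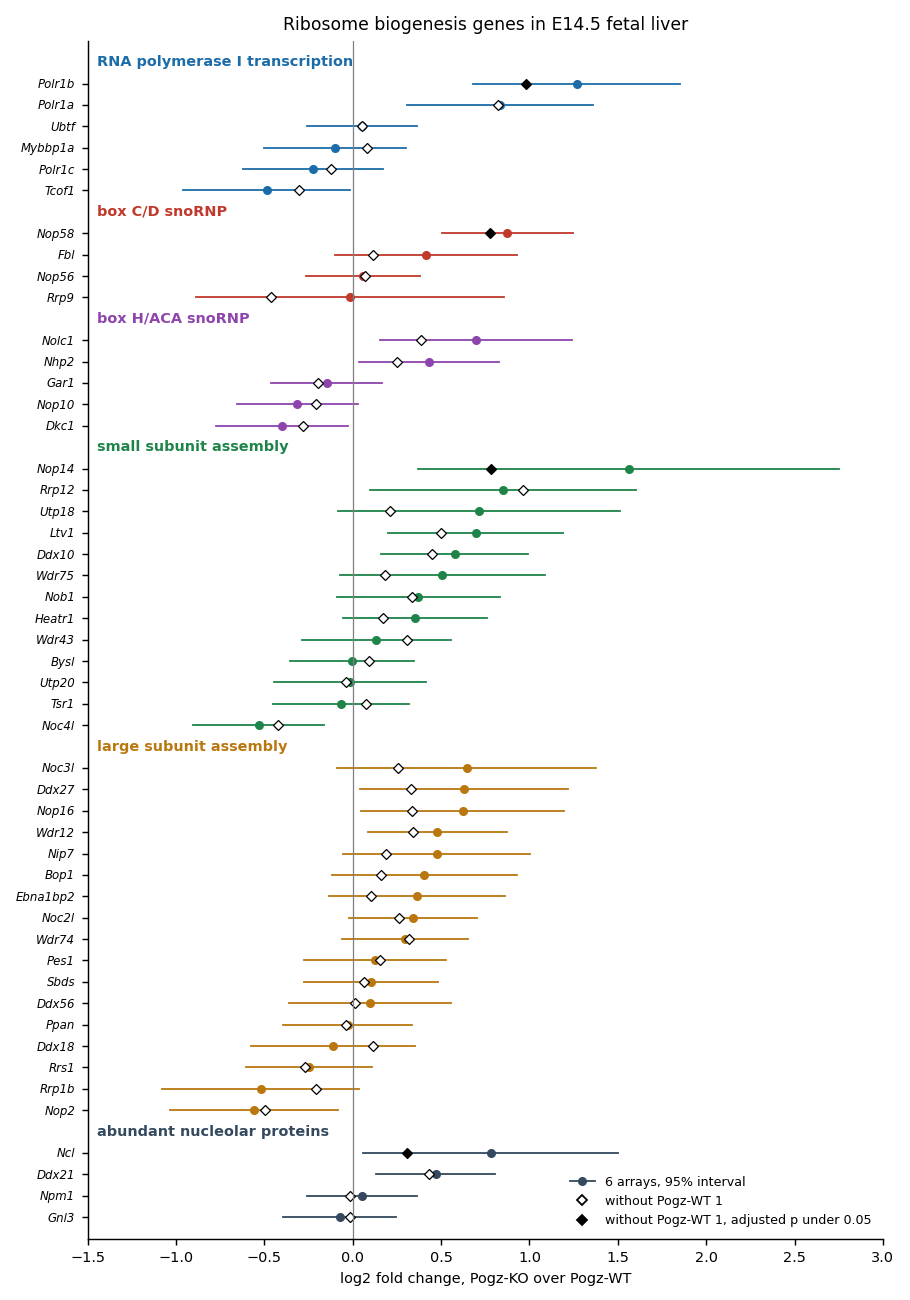
Log2 fold change, Pogz-/- over Pogz+/+, of the 49 genes by role, with filled circles and 95% intervals for 6 arrays and diamonds for the fit without Pogz+/+ replicate 1. The 4 black diamonds mark Polr1b, Nop58, Nop14 and Ncl, at 0.31 to 0.98, and over 6 arrays none of the 49 genes passed the test.

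In the box C/D snoRNPs, which guide ribose methylation, the scaffold gene Nop58 had log2 signals of 10.21, 10.04 and 10.05 in Pogz-/- FL, against 9.03, 9.48 and 9.16 in Pogz+/+ FL. The gap between the groups was wider than the spread within either of them. Its log2 fold change was 0.88 (SE 0.17, 1.83-fold) with the smallest adjusted p of the 49 genes over 6 arrays (adjusted p = 0.0844), and 0.78 (SE 0.12, 1.71-fold, adjusted p = 0.00584) without Pogz+/+ replicate 1. After quantile normalization the adjusted p was 0.101 over 6 arrays and 0.0105 without the replicate. Fbl, the methyltransferase fibrillarin, had 11.38, 11.52 and 11.57 in Pogz-/- FL, against 10.47, 11.43 and 11.33 in Pogz+/+ FL. Apart from replicate 1 the values of Fbl were interleaved, and its log2 fold change was 0.41 (SE 0.23, adjusted p = 0.367) over 6 arrays and 0.11 (SE 0.09, adjusted p = 0.549) without it. Nop56, the partner scaffold of Nop58, had 10.99, 10.67 and 10.80 in Pogz-/- FL, against 10.79, 10.77 and 10.73 in Pogz+/+ FL. Rrp9, specific to the U3 particle, spread over 6.58 to 7.54 in Pogz-/- FL and 6.09 to 7.57 in Pogz+/+ FL. Both overlapped between the genotypes.

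Box H/ACA snoRNPs guide pseudouridylation, and by their brightest probe sets the genes split by direction. Nolc1, a nucleolar chaperone of both snoRNP classes, had log2 signals of 10.15, 9.87 and 9.91 in Pogz-/- FL, against 8.65, 9.58 and 9.60 in Pogz+/+ FL. The groups did not overlap, and replicate 1 lay farther below the other Pogz+/+ arrays than these lay below any Pogz-/- array. The log2 means of Nolc1 differed by 0.70 (SE 0.25, adjusted p = 0.202) over 6 arrays and by 0.38 (SE 0.12, adjusted p = 0.0933) without replicate 1. Nhp2, a core protein of the particle, had 11.51, 11.53 and 11.70 in Pogz-/- FL, against 10.79, 11.27 and 11.40 in Pogz+/+ FL, again without overlap (log2 fold change 0.43, SE 0.18, adjusted p = 0.252, and 0.25 without replicate 1). The core proteins Nop10 and the pseudouridine synthase Dkc1 lay lower in every Pogz-/- array than in any Pogz+/+ array, with log2 differences of −0.31 for Nop10 (SE 0.15, adjusted p = 0.314) and −0.40 for Dkc1 (SE 0.17, adjusted p = 0.256). The Dkc1 value holds for its brightest probe set only, since its other probe sets lay higher in every Pogz-/- array (below). Gar1, the remaining core protein, had 10.30, 10.29 and 10.20 in Pogz-/- FL, against 10.32, 10.48 and 10.44 in Pogz+/+ FL, a narrow separation with a log2 fold change of −0.15. For Nop10 the separation ended after quantile normalization, where its log2 fold change was −0.04, and for all 3 it ended when each array was centred on its median.

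**Figure D3:**
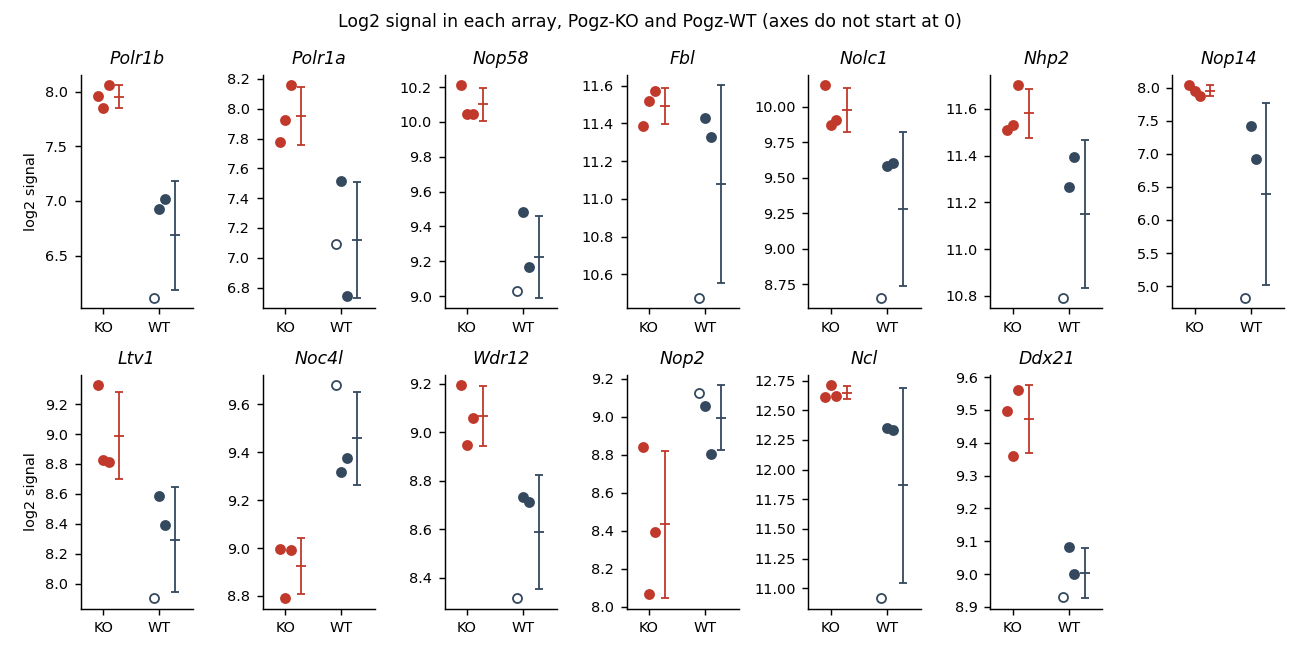
Log2 signal in each array (points) for the 13 genes described by rule, Pogz-/- left of Pogz+/+ in each panel, with the mean and SD of 3 arrays beside the points and Pogz+/+ replicate 1 drawn open. The open point is the lowest Pogz+/+ value of Polr1b, Nop58, Nop14 and Ncl, and for Noc4l and Nop2 the Pogz-/- means lie lower.

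Among the 13 small subunit assembly genes, 9 had a log2 fold change above 0 and the median was 0.37. Nop14, a component of the early small subunit particle, had log2 signals of 8.04, 7.94 and 7.87 in Pogz-/- FL, against 4.82, 7.42 and 6.92 in Pogz+/+ FL. The Pogz-/- arrays agreed closely, while replicate 1 lay far below the other Pogz+/+ arrays. Its log2 fold change of 1.56 (SE 0.54, 2.95-fold, adjusted p = 0.198) over 6 arrays became 0.78 (SE 0.19, 1.72-fold, adjusted p = 0.0369) without that array, a call that quantile normalization ended (adjusted p = 0.054). Noc4l, which in yeast acts as a partner of Nop14, lay the other way on its brightest probe set, at 8.99, 8.79 and 8.99 in Pogz-/- FL, against 9.68, 9.32 and 9.38 in Pogz+/+ FL. No values overlapped, and the log2 fold change of −0.53 (SE 0.17) did not pass (adjusted p = 0.176). With the mean of all its probe sets the log2 fold change of Noc4l was 0.09.

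Ltv1, a late assembly factor, had log2 signals of 9.33, 8.83 and 8.81 in Pogz-/- FL, against 7.90, 8.59 and 8.39 in Pogz+/+ FL (log2 fold change 0.70, SE 0.22, adjusted p = 0.181). The helicase Ddx10 had 8.42, 8.58 and 8.71 in Pogz-/- FL, against 7.74, 8.08 and 8.17 in Pogz+/+ FL (log2 fold change 0.58, SE 0.19, adjusted p = 0.183). Neither gene overlapped between the genotypes. Rrp12 was also without overlap, at 6.86, 7.10 and 7.70 in Pogz-/- FL, against 6.59, 5.71 and 6.81 in Pogz+/+ FL, with the largest SE of the 3 (log2 fold change 0.85, SE 0.34, adjusted p = 0.241). Heatr1 and Utp18, of the earliest particle that forms on the precursor RNA, had log2 fold changes of 0.35 and 0.71 over 6 arrays but 0.17 and 0.21 without replicate 1. The values for Wdr75 were 0.51 and 0.18. Heatr1 did not overlap between the genotypes, and Utp18 and Wdr75 did. Wdr43, Bysl, Tsr1, Utp20 and Nob1, the endonuclease that makes the end of the small subunit RNA, overlapped between the genotypes, with log2 fold changes between −0.07 and 0.37.

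The 17 large subunit genes had a median log2 fold change of 0.30 over 6 arrays, with 12 above 0, and 0.15 without replicate 1. Their fold changes lay between −0.56 and 0.64. Wdr12, of the complex with Pes1 and Bop1 that acts on the large subunit precursor, had 9.19, 8.95 and 9.06 in Pogz-/- FL, against 8.32, 8.73 and 8.71 in Pogz+/+ FL. The groups did not overlap (log2 fold change 0.48, SE 0.18, adjusted p = 0.217), but with the mean of all its probe sets the value was 0.05. Its partners Bop1 and Pes1 overlapped between the genotypes, with log2 fold changes of 0.41 and 0.13 over 6 arrays and 0.16 and 0.15 without replicate 1. Nop2 had 8.84, 8.07 and 8.39 in Pogz-/- FL, against 9.13, 9.06 and 8.80 in Pogz+/+ FL. The highest Pogz-/- value just passed the lowest Pogz+/+ value as deposited, and the log2 fold change was −0.56 (SE 0.21, adjusted p = 0.228).

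Of the other large subunit genes, Wdr74 was narrow within each genotype, at 8.75, 8.59 and 8.56 in Pogz-/- FL against 8.38, 8.31 and 8.33 in Pogz+/+ FL (log2 fold change 0.30, SE 0.16, adjusted p = 0.353). Noc2l and Noc3l, transport factors of the precursor known best from yeast, had log2 fold changes of 0.34 and 0.64, and Nop16 and the helicase Ddx27 of 0.62 and 0.63. Without replicate 1 the values of Noc2l, Noc3l, Nop16 and Ddx27 were 0.26, 0.26, 0.34 and 0.33, and Nip7, an assembly factor, had 0.47 over 6 arrays and 0.19 without it. As deposited Noc2l, Nop16 and Nip7 did not overlap between the genotypes over 6 arrays, while Noc3l and Ddx27 did. After quantile normalization Noc2l, Nop16, Nip7 and Wdr74 overlapped too, and 1 of the 17 genes (Wdr12), against 5 as deposited, had all Pogz-/- arrays above. In 3 of the 17 (Nop2, Ppan and Rrp1b), against 1 as deposited, all Pogz-/- arrays then lay below. On that scale 11.6% of all genes lay above and 12.4% below, and 18.2% and 17.7% of genes with a mean log2 signal of at least 6. The remaining members Ebna1bp2, Ddx18, Ddx56 and Ppan overlapped as deposited, with log2 fold changes between −0.11 (Ddx18, at 0.12 without replicate 1) and 0.36 (Ebna1bp2, at 0.10 without it). Rrp1b lay below in each Pogz-/- array, with 8.32, 8.31 and 8.16 in Pogz-/- FL, against 9.41, 8.50 and 8.44 in Pogz+/+ FL, a log2 fold change of −0.52 that shrank to −0.21 without replicate 1. Sbds, whose human counterpart is mutated in a bone marrow failure syndrome and which frees the new subunit for translation, differed by 0.10 over 6 arrays (95% interval −0.28 to 0.48). Mrto4 was listed but has no value, since its only probe set also names 2 pseudogenes.

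The abundant nucleolar proteins Ncl, Npm1, Gnl3 and Ddx21 are used at many steps. Ncl, nucleolin, had log2 signals of 12.62, 12.71 and 12.62 in Pogz-/- FL, against 10.92, 12.35 and 12.33 in Pogz+/+ FL. Pogz-/- arrays and the other two Pogz+/+ arrays were each tightly grouped, and replicate 1 was far lower. The log2 fold change was 0.78 (SE 0.33, adjusted p = 0.255) over 6 arrays and 0.31 (SE 0.07, 1.24-fold, adjusted p = 0.0378) without it. Ddx21, a helicase of RNA polymerase I transcription and snoRNP function, had 9.50, 9.36 and 9.56 in Pogz-/- FL, against 8.93, 9.08 and 8.999 in Pogz+/+ FL. It did not overlap and did not rest on replicate 1, the log2 difference being 0.47 (SE 0.15, adjusted p = 0.183) over 6 arrays and 0.43 (SE 0.12, adjusted p = 0.061) without it. Npm1 and Gnl3, nucleostemin, overlapped between the genotypes as deposited, with log2 fold changes of 0.05 and −0.07. After quantile normalization these were 0.35 and −0.14, and Npm1 no longer overlapped.

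Set against all genes over 6 arrays, the 49 had a higher median, and none of them was called. The test called 18 genes of 18193 higher (0.0989%) and 4 lower (0.022%) in Pogz-/- FL, and 0 of the 49 in either direction. At an unadjusted p under 0.05, 14 of the 49 were higher (28.6%) and 4 lower (8.16%), against 7.15% and 10.6% of all genes and 14.1% and 11.8% of genes with a mean log2 signal of at least 6. Limma without trend and robust gave 6 of 49 at that level, beside 2389 of the 18193 genes, and the methods' t-test 9, beside 2412, and neither of these called a member. After quantile normalization 7 genes were called higher (0.0385%) and 2 lower (0.011%), again with 0 of the 49.

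The arrays of the 2 genotypes were also set apart gene by gene. In 17 of the 49 genes (34.7%) all Pogz-/- arrays lay above all Pogz+/+ arrays, against 10.8% of all genes and 20.3% of the 8399 genes with a mean log2 signal of at least 6, as all 49 have. In 6 (12.2%) all lay below, against 16.3% of all genes and 16.9% of those at that signal. With quantile normalization the counts were 14 above (28.6%), against 11.6% of all genes and 18.2% of the brighter ones, and 7 below (14.3%), against 12.4% and 17.7%. The median log2 fold change of 0.30 stood beside −0.17 for all genes and 0.03 for the brighter genes. With each array centred on its median the counts were 39 above and 0 below. On that scale 4816 of all 18193 genes lay above and 1030 below, and of the 8399 brighter genes 4198 and 249. The median of all genes was then 0.29, and none of the 6 members that lay below as deposited did so under that scaling.

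Without Pogz+/+ replicate 1 the test called 439 genes higher (2.41%) and 376 lower (2.07%). Of the 49, 4 were called higher (8.16%), 3 of them by at least 1.5-fold, and 0 lower, where 4.95% of the brighter genes were called higher. With quantile normalization 377 genes were called higher (2.07%) and 302 lower (1.66%), with 3 of the 49 higher (6.12%), namely Ncl, Nop58 and Polr1b, beside 4.08% of the brighter genes. With each array centred on its median instead, 19 of the 49 were called higher in that fit, but so were 10.1% of all genes and 1760 of the 8399 brighter ones. The median over all genes was then 0.18 on the log2 scale, against −0.10 as deposited. Limma without trend and robust called 0 genes without that replicate, with 7 of the 49 at an unadjusted p under 0.05, beside 2385 of the 18193 genes.

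Several genes are read by more than 1 probe set, and these often disagreed. The 49 genes have 99 probe sets, and of 34 genes with several, 10 had all of them higher, 2 all lower and 22 both ways over 6 arrays. Over 6 arrays 0 of the 99 passed the test over 45037 probe sets. Without Pogz+/+ replicate 1, 7 were called higher and 0 lower, where 1.45% of all probe sets were called higher, and 5 of the 7 were not the brightest of their gene. The brightest probe sets of Ncl (adjusted p = 0.0504) and Nop14 (adjusted p = 0.0542) were not among the 7, although both genes were called when tested over genes. With quantile normalization 8 were called higher, where 1.31% of all probe sets were. The shares of all probe sets include dim ones and those naming no gene, and were not taken among brighter probe sets.

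Dkc1 had the clearest such split. Its brightest probe set lay lower in Pogz-/- FL (above), but the other two were higher, at 11.13, 11.14 and 11.03 in Pogz-/- FL, against 10.01, 10.70 and 10.49 in Pogz+/+ FL, and at 9.84, 10.00 and 9.98 in Pogz-/- FL, against 9.14, 9.32 and 9.15 in Pogz+/+ FL. Each of these 2 separated the genotypes, with log2 fold changes of 0.70 and 0.74 over 6 arrays (adjusted p = 0.177 and 0.131) and adjusted p = 0.0221 and 0.0095 without replicate 1. Dimmer probe sets of Fbl, Nhp2 and Nop56 were likewise called higher without replicate 1, by 0.59, 0.81 and 0.53 on the log2 scale (adjusted p = 0.0243, 0.00598 and 0.035), while the brightest ones of these genes were not. The call of Nop56 was lost when the values were also quantile normalized (adjusted p = 0.0502). For Npm1 the dimmer probe set was called only after quantile normalization (log2 fold change 0.48, adjusted p = 0.0326). Ncl had 5 probe sets, 2 of them higher and 3 lower over 6 arrays, between −0.54 and 0.78.

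**Figure D4:**
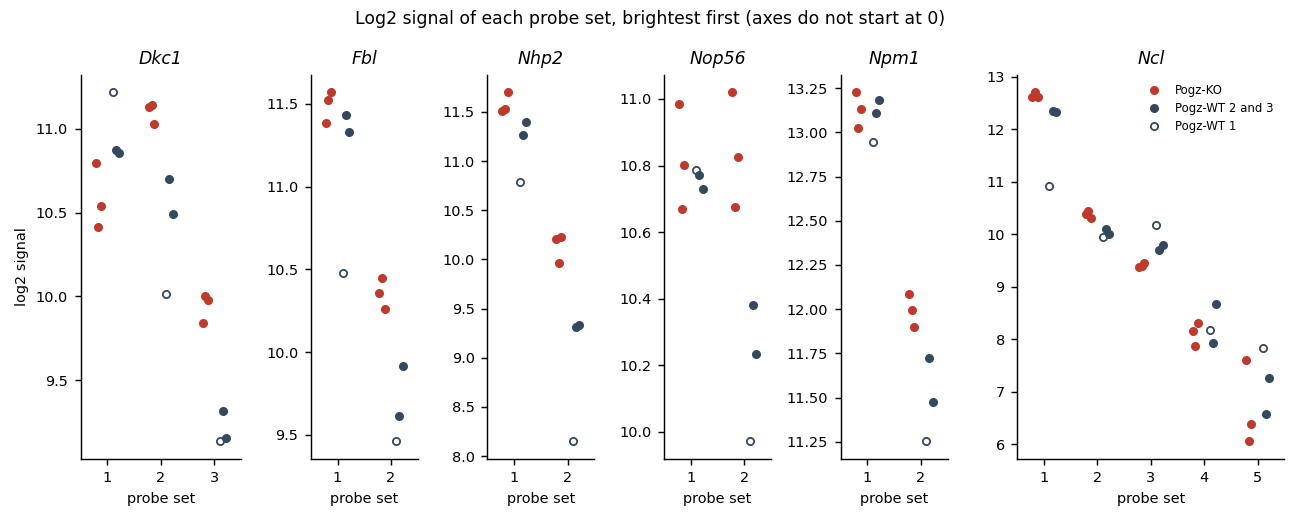
Log2 signal of every probe set of Dkc1, Fbl, Nhp2, Nop56, Npm1 and Ncl, brightest first, in each array, with Pogz-/- left of Pogz+/+ and Pogz+/+ replicate 1 drawn open. The other two probe sets of Dkc1 are higher in all Pogz-/- arrays (log2 fold changes 0.70 and 0.74), and the first is lower (−0.40).

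The naming class of a probe set bears on what it reads. Of the 49 brightest probe sets, 33 carry the plain class, 7 the class for several transcripts of a gene, 7 the class shared among transcripts that may include relatives, and 2, those of Noc4l and Rrs1, the class whose probes may match unrelated sequences. Dkc1, Fbl, Nhp2 and Nop56 are in the shared class. Rrs1, an assembly factor of the large subunit, had a log2 fold change of −0.25 on that probe set and 0.82 on its other one. Noc4l had 4 probe sets, at −0.53, −0.34, 0.52 and 0.70, so its direction differs among them.

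The rest of the pathway, taken from 5 lists of other assembly factors, polymerase subunits, snoRNP assembly proteins and nucleases, had 110 of 116 genes measured. Over 6 arrays 0 of the 110 passed the test in either direction, and their median log2 fold change was 0.18. In 27 (24.5%) all Pogz-/- arrays lay above all Pogz+/+ arrays, against 10.8% of all genes and 20.3% of the brighter genes. Without Pogz+/+ replicate 1, 4 were called higher (3.64%), against 2.41% of all genes and 4.95% of the brighter ones, and 1 was called lower. The 4 were Emg1 and Nop9, of small subunit assembly, at log2 fold changes of 0.71 and 0.74 (adjusted p = 0.00232 and 0.0151), Pno1, of the same step, at 0.84 (adjusted p = 0.0122), and Polr1d, a polymerase subunit, at 0.48 (adjusted p = 0.0147). Pih1d1, of the chaperone complex that assembles snoRNPs, fell by 0.87 (adjusted p = 0.00775), with 7.66, 7.59 and 7.59 in Pogz-/- FL against 8.90, 8.42 and 8.54 in Pogz+/+ FL. The 5 genes were also called after quantile normalization (adjusted p = 0.00392, 0.026, 0.0202, 0.0186 and 0.00843, in the order given).

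MYC and its partners are known to set the output of this pathway. Of 9 genes of that network 0 passed the test over 6 arrays. Myc had log2 signals of 9.39, 9.12 and 9.05 in Pogz-/- FL, against 7.15, 8.68 and 8.42 in Pogz+/+ FL. Replicate 1 was again the lowest, and without it Myc was called higher (log2 fold change 0.64, SE 0.14, adjusted p = 0.0281), a call that quantile normalization ended (adjusted p = 0.0563). Mxd3, which competes with MYC for its partner MAX, had 7.39, 8.09 and 7.48 in Pogz-/- FL, against 9.48, 9.003 and 8.64 in Pogz+/+ FL. No values overlapped, and it was lower by the test without replicate 1 (log2 fold change −1.17, SE 0.21, adjusted p = 0.0118) but not over 6 arrays (−1.39, adjusted p = 0.0798). Mga, another MAX partner, was called higher without replicate 1 (log2 fold change 0.92, adjusted p = 0.0293). With the mean of all probe sets over 6 arrays Mga was at 0.004, against 0.94 on its brightest one, and Pih1d1 at −0.26, against −1.01.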

How the data were processed

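RNA of unsorted FL cells from 3 Pogz-/- and 3 Pogz+/+ embryos, about 100 ng each, was labelled by 3′ in vitro transcription and hybridized, per the labels. Intensity values were deposited as the authors exported them from Affymetrix Expression Console (version and algorithm: not stated in the sources used). They are linear, hold a 2% trimmed mean of 150 in each array, and were not quantile normalized, with medians of 29.7 to 31.6 in Pogz-/- and 36.0 to 54.3 in Pogz+/+. Genotypes and replicate numbers came from the sample labels, replicates are separate livers, and p-values weigh the genotype difference against the spread between them. Xist, a transcript of female cells, had log2 signals of 12.81, 12.92 and 6.85 in Pogz-/- FL, against 7.10, 4.81 and 12.91 in Pogz+/+ FL. Embryo sex was not in the model, and its part in the results was not tested.

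Log2 was taken with no pseudocount, all intensities being above 0. After 64 controls were left out, 45037 probe sets remained, of which 34945 name 1 gene, 932 several and 9160 none here. Each of 18193 genes was read by its brightest probe set naming it alone. The model held genotype alone, in limma 3.58.1 under R 4.3.3 (eBayes with trend and robust, two-sided, Benjamini-Hochberg over all genes or all probe sets), and a gene was called at an adjusted p under 0.05. The fit without Pogz+/+ replicate 1 has 2 Pogz+/+ arrays to estimate their spread. The script was tested on simulated arrays. With 6 of them, 0 of 67 genes changed 1.5-fold, 26 of 67 changed 2-fold and 55 of 66 changed 4-fold were called, with 8 false calls. Without Pogz+/+ replicate 1 the counts were 13, 37 and 55, with 0 false calls. A gene not called may therefore still differ, above all when its change is under 2-fold. Members, lists, rules and alternatives were chosen with earlier results of these data known. The named genes were the members called in any of 4 fits (6 arrays or without Pogz+/+ replicate 1, each as deposited or quantile normalized) and the 2 per role with the largest moderated t over 6 arrays, Pogz, and from each list of other genes those called and the 1 with the largest moderated t. Others were named after their values were seen. No column of another sample was present.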

Additional observations from a re-analysis of the deposited data

How the results depend on the processing

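The count of genes called moved with most settings: 22 over 6 arrays as deposited, 9 after quantile normalization, 4 after median centring (all higher, against 81.8% of the 22), 0 with limma without trend and robust (2389 genes at an unadjusted p under 0.05), 12 among the brighter genes alone, 5 with the mean of all probe sets and 1 with the methods' t-test (2412 at an unadjusted p under 0.05). Leaving out each array gave 0 to 815, the highest without Pogz+/+ replicate 1, and that fit gave 679 with quantile normalization and 1944 with median centring (94.9% higher, against 53.9% of the 815). It gave 0 without trend and robust, a setting chosen after seeing the data. The cause was not tested.

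Members called higher were 0 under every setting over 6 arrays. Leaving out each array gave 0 to 4, and without Pogz+/+ replicate 1 the count was 3 with quantile normalization and 19 with median centring. Of the 8399 brighter genes 343 and 1760 were called higher in these fits. Members called lower were 0 in all fits run. Members with all Pogz-/- arrays above numbered 39 after median centring, with or without replicate 1. Of all 18193 genes 4816 lay above with that replicate and 5403 without it, and of the 8399 brighter genes 4198 and 4326. Leaving out each array gave 18 to 24 members above. Without Pogz+/+ replicate 1 it was 19 (38.8%), against 14.9% of all genes and 24.4% of the brighter ones. Members with all Pogz-/- arrays below numbered 0 after median centring, with or without replicate 1, and 1 with the mean of all probe sets. After median centring 1030 of all genes lay below with that replicate and 1699 without it. Leaving out each array gave 6 to 9 members below. Without Pogz+/+ replicate 1 it was 6 (12.2%), against 21.7% of all genes and 22.2% of the brighter ones. For the other fits these shares are not given here. The median log2 fold change was 0.76 after median centring (0.29 for all genes), 0.10 with the mean of all probe sets, 0.12 without replicate 1 after quantile normalization, and 0.15 to 0.32 when each array was left out. With the mean of all probe sets Ncl (−0.0054), Noc4l (0.0874) and Exosc8, an exosome subunit (−0.27), changed sign, and Polr1a (0.08), Wdr12 (0.05) and Mga (0.004) came near 0. Of 24 named genes 12 were called without replicate 1, 10 of 24 when quantile normalized too and 22 of 24 when median centred too. Of all 18193 genes 815, 679 and 1944 were called in the same fits. Genes were named in part for being called as deposited or quantile normalized without replicate 1, so these counts follow from that choice.

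The replicate numbers did not pair the samples: deviations of same-numbered arrays correlated at 0.004, −0.009 and −0.013. With the replicate block 65 genes were called and 14 with the block and quantile normalization, which was chosen after seeing the data, and 0 members were called in both. No detection calls were used, so signal over background was not assessed.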

Other observations

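Other named genes of the pathway lay above in all Pogz-/- arrays without passing the test in the 4 fits used to name genes. Ftsj3, of large subunit assembly, had log2 signals of 7.23, 7.65 and 7.60 in Pogz-/- FL, against 6.22, 7.20 and 6.26 in Pogz+/+ FL (log2 fold change 0.93, SE 0.30, adjusted p = 0.179 from limma over 6 arrays). Exosc8, a subunit of the nuclease complex that trims ribosomal RNA precursors, had 10.23, 10.23 and 10.27 in Pogz-/- FL, against 9.27, 10.00 and 10.08 in Pogz+/+ FL (log2 fold change 0.46, SE 0.21, adjusted p = 0.291).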
